A study of Mus musculus with 2 samples.

Results

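Apob and 9 genes that edit its mRNA or load and export the particles built on its protein were followed in the intestine of newborn mice. The members were taken by gene symbol from the gene tables, and all 10 were matched among 43346 Ensembl genes, with 39 transcripts in the transcript tables. The tissue came from 2 littermate pups of the B6NCrl strain, aged 0 days and of uncollected sex, with 1 library of RNA longer than 200 nt from the intestine of each, made from 10 ng of RNA. These are biological replicates 1 and 2 of the labels, called pup 1 and pup 2 here, and both belong to a single group with no treatment named, so the data describe levels at birth and the difference between littermates, not a treatment. The labels do not say which segments of the intestine were taken. The deposited expected counts summed to 44568098 in pup 1 and 34797495 in pup 2. No p-value is given, because an exact sign-flip test on 2 libraries cannot go below 0.5.

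Apolipoprotein B is the scaffold of the triglyceride-rich lipoproteins and stays with its particle from assembly to clearance. The enterocyte builds chylomicrons, which carry dietary fat into lymph, and the hepatocyte builds very low density lipoprotein. In mammalian small intestine the deaminase Apobec1, with RNA-binding cofactors, converts a cytidine of the Apob mRNA to uridine, which turns a glutamine codon into a stop codon and yields a short protein that lacks the part bound by the LDL receptor. The nascent protein then takes up lipid inside the endoplasmic reticulum through the microsomal triglyceride transfer protein and leaves in COPII carriers.

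The edited codon is shown with its surroundings because the enzyme and cofactors described here meet at it. In the longest transcript model, Apob-202, it lies in exon 26 of 29, a coding exon of 7467 bases that makes up 53.6% of the transcript. The target base, placed by its textbook position in the mRNA since no file used here marks it, is at chr12:8008054-8008054 on the plus strand of GRCm38. Counted from 1 at the first base of the start codon, the edit is C6535T, and it falls on the first base of codon 2179. The reading frame before it has 2178 codons, 48.3% of the 4505 codons of the full frame. The window printed is chr12:8008018-8008101, taken from the GENCODE M21 transcript sequences. Capitals mark the edited codon and, after 2 further bases, the 11 bases of the mooring sequence, the element to which editing cofactors are known to bind.
reference: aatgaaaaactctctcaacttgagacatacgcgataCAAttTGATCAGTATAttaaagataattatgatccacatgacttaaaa
after editing, written as DNA: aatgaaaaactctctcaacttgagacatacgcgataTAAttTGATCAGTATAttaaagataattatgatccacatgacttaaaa

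The codon CAA occurs 93 times in the Apob frame, 35 of them before the edited one, so the codon itself does not mark the site. The mooring letters TGATCAGTATA were searched in the protein-coding transcripts of 21877 genes. The letters were taken from Apob-202 itself, so Apob was bound to be among the matches. They occur on the transcript strand in 13 genes, 0.0594% of them, and as the reverse complement in 11 genes, 0.0503%. With a C placed 4 bases before them, the arrangement at the edited base, they occur in 3 genes, 0.0137%, which are Apob, Intu and Zfp964. These 3 are set side by side because they share the searched C and the mooring letters, both in capitals, and differ in the 4 bases between.
Apob, coding, chr12:8008054-8008069: CaattTGATCAGTATA
Intu, 3′ UTR, chr3:40701853-40701868: CttatTGATCAGTATA
Zfp964, 3′ UTR, chr8:69666186-69666201: CtcacTGATCAGTATA
Only Apob of the 3 has the letters in its coding sequence, and only Apob passed 1 TPM (transcript abundance scaled to transcript length and to a fixed library sum) in both pups. Intu, a planar polarity effector, had 0.80 TPM in pup 1 and 0.94 TPM in pup 2, and Zfp964 had 0.38 and 0.39 TPM. A match of letters is a description and not an editing site. The deposited tables hold no base-level reads, so the edited share of Apob mRNA was not analysed here.

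The tissue label was checked against enterocyte markers, and each of the 8 reached 1 TPM in pup 1 and in pup 2. They ranged from a mean of 29.7 TPM for Cdx2, a homeobox factor of intestinal identity, to 12393 TPM for Fabp2, an intestinal fatty acid binding protein. Because liver also makes Apob, hepatocyte markers were read too. Alb, the plasma albumin gene, had 0.79 TPM in pup 1 and 0.86 TPM in pup 2, and Cyp2e1 and Tat stayed at or below 0.10 TPM. No liver of this age was in the data, so the level of these genes in newborn liver was not tested. In all, 5 of 10 hepatocyte-list genes passed 1 TPM, namely Ttr at 322 TPM, Cps1 at 184 TPM, Serpina1b at 32.0 TPM, Fgb at 6.51 TPM and F2 at 2.71 TPM, and the list summed to 557 TPM in pup 1 and 542 TPM in pup 2. The part of these genes' source cells in the Apob level was not tested. Apob stood 110-fold above Alb with 0.1 TPM added to each gene (log2 6.78 ± 0.061, SD, n = 2). With 1 TPM added the log2 ratio was 5.81 ± 0.023, so the fold depends on the added value. Alb does not stand for the whole hepatocyte list: Ttr and Cps1 lay above Apob, and the rest of the list lay below it. The pups did not match in the posterior HOX genes: groups 9 to 13 summed to 14.5 TPM in pup 1 and 2.41 TPM in pup 2, and whether this touches the values below was not tested.

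Every one of the 10 members reached 1 TPM in pup 1 and in pup 2, against 59.1% of protein-coding genes and 32.0% of all Ensembl genes. The members and the lists below were chosen with earlier results of these data known. Counts of genes that passed 1 TPM therefore describe the chosen genes and test nothing about them. The members' levels spread widely, from P4hb at a mean of 2055 TPM down to A1cf at 6.17 TPM. Among these 10, Apobec1 and A1cf lay below every lipid loading and export gene. The order by mean TPM was P4hb, Mttp, Sar1b, Surf4, Tm6sf2, Rbm47, Apob, Pla2g12b, Apobec1 and A1cf. Each of the 9 neighbouring steps had the same sign in both pups and a mean log2 ratio larger than its SD over pups. The order was set by these same 2 libraries, so steps that go down on average were built in. With 2 pups this rule is a mild one, and it describes these libraries only. The smallest step was Apob over Pla2g12b at 1.18-fold (log2 0.24 ± 0.049), and the largest was Pla2g12b over Apobec1 at 4.30-fold (log2 2.10 ± 0.044). This order is per transcript length. By reads alone Surf4 exceeded Sar1b, Rbm47 exceeded Tm6sf2 and Apob exceeded Rbm47. Apob then lay behind only P4hb and Mttp in both pups. For scale, the 12691 protein-coding genes at 1 TPM or more had a median of 12.3 TPM in pup 1 and 12.8 TPM in pup 2.

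**Figure D1:**
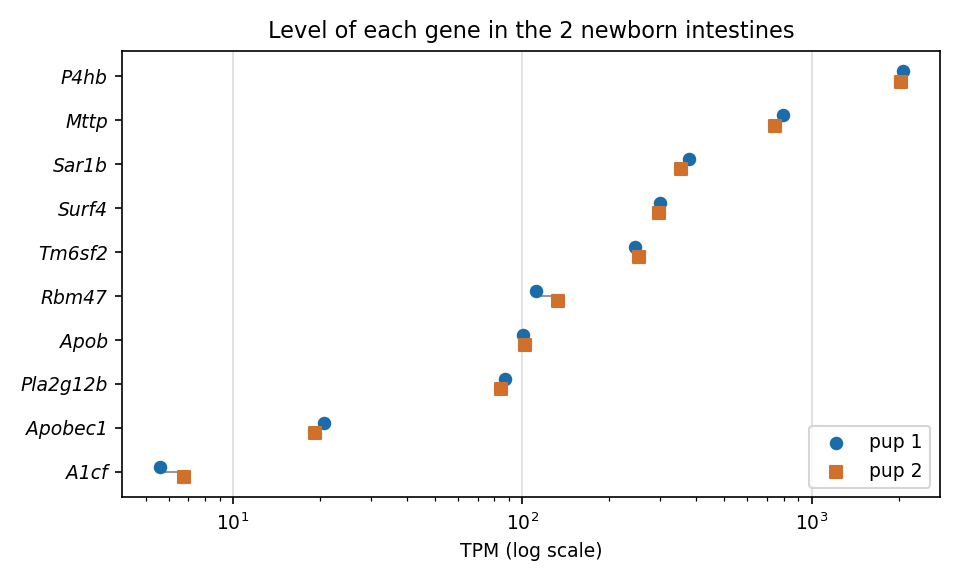
Level of each of the 10 genes in TPM on a log axis, with a circle for pup 1 and a square for pup 2, 1 library each. P4hb lies highest, near 2055 TPM, A1cf lowest, near 6.17 TPM, and the gap between the pups is widest for Rbm47 and A1cf.

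Apob itself (ENSMUSG00000020609.10, chr12:7977648-8016835, plus strand of GRCm38) had 100.5 TPM in pup 1 and 102 TPM in pup 2, a mean of 101 ± 1.13 TPM (SD, n = 2). The pups lay close together, and the deposited intervals of 97.1 to 101.5 TPM in pup 1 and 98.2 to 103 TPM in pup 2 overlapped. Apob ranked 1263 among nuclear protein-coding genes by mean TPM. The value rests on many reads because the transcript is long: 48433 in pup 1 and 38016 in pup 2. Of the 8 other listed apolipoproteins some lay above Apob per length and Apoc1, Apoa2 and Apoa5 lay below it. Apoa4, which rides on chylomicrons and has a much shorter mRNA, exceeded Apob 254-fold in pup 1 while the excess in pup 2 was 218-fold (log2 of Apob over Apoa4 -7.88 ± 0.15). The protein-coding genes nearest to Apob in level over the 2 pups were Zfp706, Hnrnpm, Cpt2, Dnpep and Hsd17b4, with means of 100.2 to 102 TPM. With 2 libraries, such likeness is one of level only.

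Nearly all Apob signal was assigned to transcripts that span the edited codon. Apob-202 took 95.1% of Apob TPM in pup 1 and 97.5% in pup 2. Apob-201, which starts 131 bases downstream and also spans the codon, took 1.59% in pup 1 and 0% in pup 2. Its estimate was poorly determined: the deposited intervals were 0.479 to 5.16 TPM in pup 1 and 0.128 to 4.35 TPM in pup 2. Together these transcripts held 96.7% in pup 1 and 97.5% in pup 2. Apob-204, which has 9 exons at the 5′ end in 1118 bases and ends before the codon, took 3.20% and 2.45%. By reads it held only 0.243% and 0.185%, because a short model needs few reads for a given TPM. Apob-203, at the other end of the gene, stayed at or below 0.10%. Editing changes 1 base and leaves the transcript length as it is, so edited and unedited mRNA share the same transcript row.

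**Figure D2:**
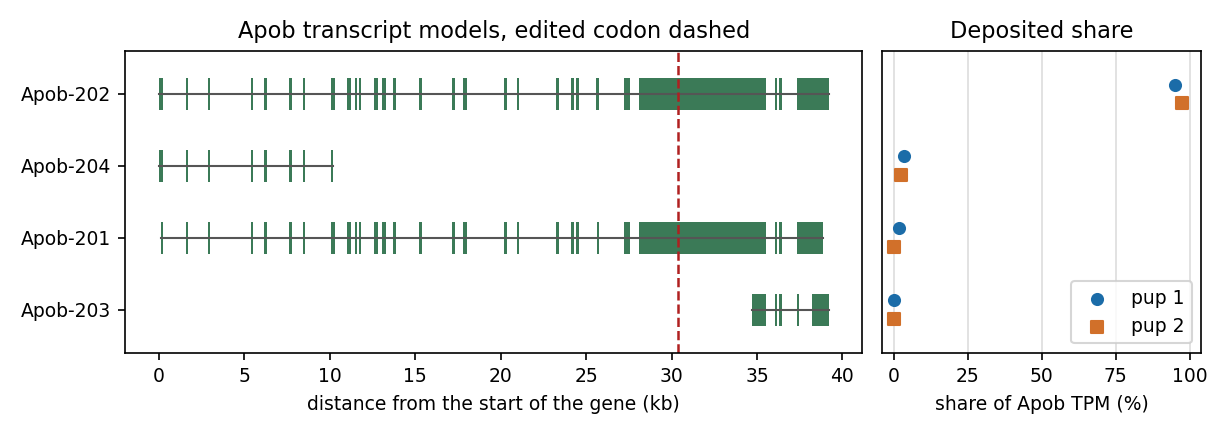
The 4 Apob transcript models drawn by distance from the start of the gene in kb, with exons as boxes and the edited codon as a dashed line, and beside them the share of Apob TPM in percent for pup 1 (circles) and pup 2 (squares). The dashed line crosses the longest exon of Apob-202 and Apob-201, and Apob-202 holds 95.1% in pup 1 and 97.5% in pup 2.

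Apobec1, the catalytic subunit of the editing enzyme (ENSMUSG00000040613.10, chr6:122577792-122602444, minus strand), had 20.6 TPM in pup 1 and 19.1 TPM in pup 2 (mean 19.9 ± 1.06 TPM). It lay 5.07-fold below Apob (log2 -2.34 ± 0.093). It was the highest of 5 listed deaminase genes, of which 3 passed 1 TPM. Apobec3, an antiviral deaminase, followed at 10.4 ± 0.339 TPM, and Apobec1 exceeded it by 1.91-fold (log2 0.93 ± 0.12). Apobec2, known from muscle, was at 2.45 ± 0.021 TPM. Apobec4 had no read in either pup.

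Apobec1 was the member whose transcript shares differed most between the pups. Apobec1-203 took 60.4% of its TPM in pup 1 and 36.1% in pup 2, and Apobec1-201 took 36.5% and 59.7%. The leading transcript therefore changed between the pups, but the assignment was loose. The deposited intervals of Apobec1-203 were 8.72 to 15.5 TPM in pup 1 and 2.26 to 10.8 TPM in pup 2, and those of Apobec1-201 were 4.03 to 10.8 and 7.54 to 15.7 TPM, so for both transcripts the pups overlapped. The models share 2012 exonic bases and have the same coding sequence. Apobec1-203 starts 2244 bases downstream, at the second exon of Apobec1-201, and holds 60 bases that Apobec1-201 lacks. The first exon of Apobec1-201, of 115 bases, is absent from Apobec1-203.

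**Figure D3:**
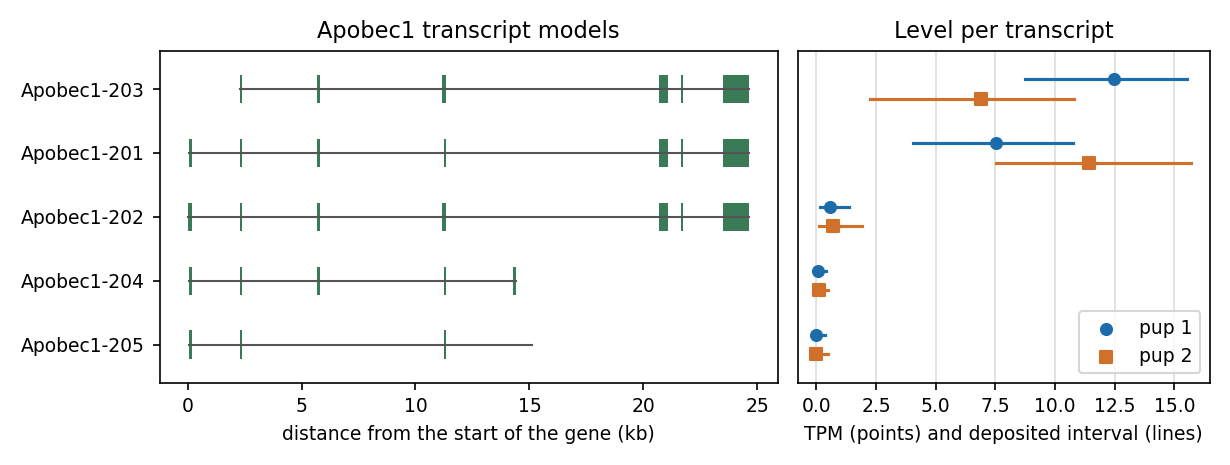
The 5 Apobec1 transcripts of the deposited tables drawn by distance from the start of the gene in kb, with exons as boxes, and beside them the TPM in pup 1 (circles) and pup 2 (squares) with the deposited interval as a line. Apobec1-203 leads in pup 1 and Apobec1-201 in pup 2, and the lines of the pups overlap for both.

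Of the RNA-binding cofactors, Rbm47 was abundant and A1cf was the lowest member. Rbm47 (ENSMUSG00000070780.7, chr5:66016549-66173118, minus strand), an RNA-binding protein needed for full Apob editing in mice, had 111 TPM in pup 1 and 133 TPM in pup 2 (mean 122 ± 15.5 TPM). Pup 2 was higher, and the deposited intervals of the pups did not overlap. A1cf (ENSMUSG00000052595.6, chr19:31868764-31948995, plus strand), the cofactor first purified with the enzyme, had 5.57 TPM in pup 1 and 6.76 TPM in pup 2 (mean 6.17 ± 0.841 TPM), from 747 and 695 reads. The excess of Rbm47 over A1cf was 19.6-fold in pup 1 against 19.4-fold in pup 2 (log2 4.29 ± 0.011). Relative to Apobec1, Rbm47 stood 6.10-fold higher (log2 2.61 ± 0.26) and A1cf 3.20-fold lower (log2 -1.68 ± 0.27). A1cf-201 was the only A1cf transcript in the tables, and Rbm47-205 held 91.5% of Rbm47 in pup 1 and 91.9% in pup 2. Of 12 Rbm47 transcripts, 7 have no name in the M21 annotation and together took 7.04% and 6.77%.

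All 8 genes of a wider list of proteins reported to bind the enzyme, the cofactor or the editing site were at 1 TPM or more. Hnrnpab led at 148 ± 6.10 TPM, followed by Rbm47 and by Dnajb11, an endoplasmic reticulum co-chaperone, at 96.8 ± 1.86 TPM. Syncrip, an RNA-binding relative of A1cf, was at 27.9 ± 1.62 TPM, and A1cf lay 4.48-fold below it (log2 -2.16 ± 0.28). A1cf and Bag4, at 6.13 ± 0.106 TPM, were lowest, A1cf below Bag4 in pup 1 and above it in pup 2.

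The subunits of the lipid transfer protein were the most abundant members. Mttp (ENSMUSG00000028158.10, chr3:138089854-138144968, minus strand), the large subunit, which carries the lipid and whose loss in people causes abetalipoproteinaemia, had 799.5 TPM in pup 1 and 745 TPM in pup 2 (mean 772 ± 38.8 TPM). The excess of Mttp over Apob was 7.95-fold in pup 1 against 7.29-fold in pup 2 (log2 2.93 ± 0.089). P4hb (ENSMUSG00000025130.7, chr11:120560298-120573253, minus strand), protein disulfide isomerase, is the small subunit and also folds other secreted proteins. It had 2064 TPM in pup 1 and 2046 TPM in pup 2 (mean 2055 ± 12.6 TPM) and ranked 22 among nuclear protein-coding genes. P4hb exceeded Mttp by 2.66-fold (log2 1.41 ± 0.064).

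P4hb was also the highest of the listed folding genes of the endoplasmic reticulum. All 10 of that list passed 1 TPM, and after P4hb came Calr, a lectin chaperone, at 393 ± 18.7 TPM and Hspa5, the luminal HSP70, at 364 ± 1.39 TPM. Its close relative Pdia3 was at 269 ± 15.7 TPM, 7.65-fold below P4hb (log2 2.94 ± 0.076 for P4hb over Pdia3). The lowest were Sdf2l1 at 55.5 ± 1.35 TPM and Hyou1 at 8.68 ± 0.354 TPM. Not all P4hb TPM belonged to the coding transcript: P4hb-201 held 78.6% in pup 1 and 76.7% in pup 2, and P4hb-202, a processed transcript of 414 bases, held 19.5% and 20.98%. By reads P4hb-202 held 2.74% in pup 1 and 3.0% in pup 2. P4hb-201 alone had 1622 TPM in pup 1 and 1570 TPM in pup 2, still above Mttp.

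Tm6sf2 and Pla2g12b, which enlarge the lipid core of the nascent particle, lay below Mttp. Tm6sf2 (ENSMUSG00000036151.11, chr8:70072924-70080066, plus strand), a membrane protein of the endoplasmic reticulum, had 245 TPM in pup 1 and 253 TPM in pup 2 (mean 249 ± 5.25 TPM), 3.1-fold below Mttp (log2 -1.63 ± 0.10). Pla2g12b (ENSMUSG00000009646.9, chr10:59403660-59421976, plus strand), a phospholipase relative without catalytic activity, had 87.1 and 84.3 TPM in pups 1 and 2 (mean 85.7 ± 1.94 TPM), 8.99-fold below Mttp (log2 -3.17 ± 0.040). Each stood above its nearest relative: Tm6sf2 exceeded Tm6sf1 (13.8 ± 0.742 TPM) by 17.9-fold (log2 4.16 ± 0.047), and Pla2g12b exceeded Pla2g12a (23.0 ± 0.537 TPM) by 3.71-fold in both pups.

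In the wider list of lipid loading and storage genes, 11 of 12 passed 1 TPM, and the list median was 304 ± 5.80 TPM. P4hb led, followed by Dgat2, which makes triglyceride, at 1314 ± 48.1 TPM and by Mttp. Fitm2, which helps form lipid droplets, was low at 4.33 ± 0.099 TPM, and its muscle relative Fitm1 had 0.38 TPM in pup 1 and 0.42 TPM in pup 2. Of 9 proteins that degrade apolipoprotein B or bind its particles, all passed 1 TPM. Vcp, the ATPase that pulls proteins out of the endoplasmic reticulum, led at 165 ± 1.36 TPM, before the lipoprotein receptor Lsr at 92.2 ± 4.71 TPM. Sort1, a sorting receptor, was at 4.32 ± 0.247 TPM and the receptor Vldlr at 2.08 ± 0.481 TPM.

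**Figure D4:**
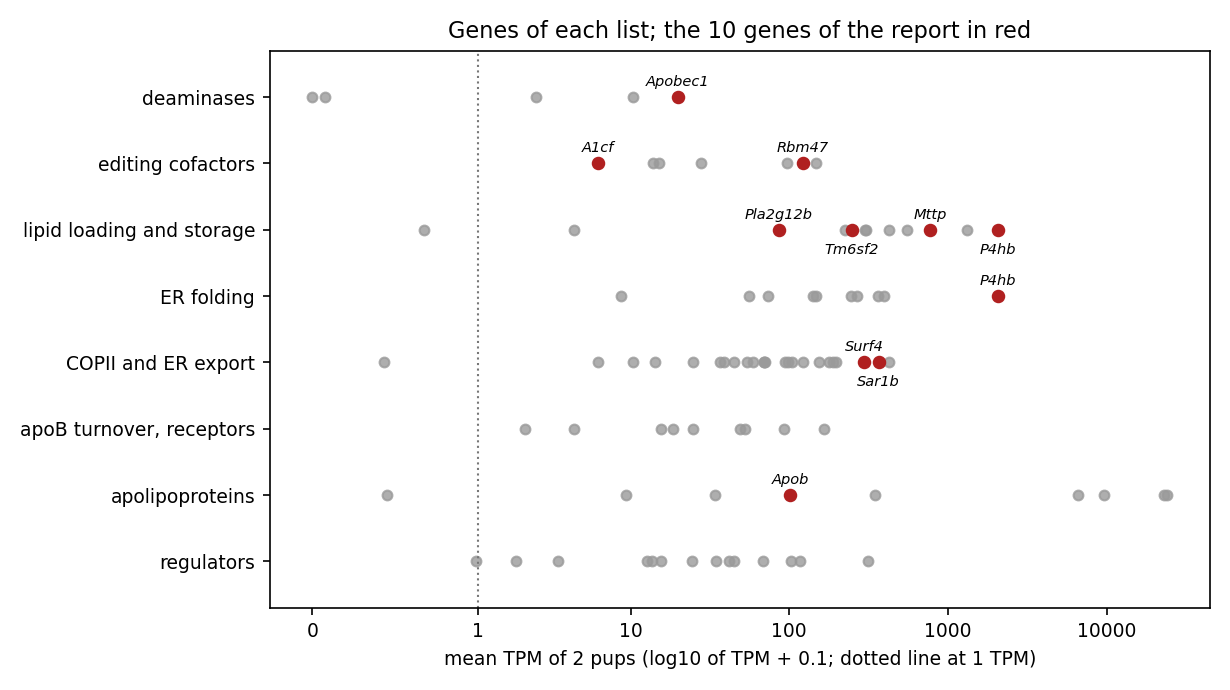
Mean TPM over the 2 pups of every matched gene in 8 lists, on a log10(TPM + 0.1) axis, with the 10 members in red and labelled and a dotted line at 1 TPM. Apobec1 is the highest deaminase, P4hb the highest folding gene, and Apob lies between the abundant small apolipoproteins and Apoa5 near 0.195 TPM.

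Among the members, the export genes Sar1b and Surf4 lay 1.23-fold apart on average per transcript length. Sar1b (ENSMUSG00000020386.5, chr11:51763687-51791925, plus strand), the GTPase that starts COPII coats and is mutated in human chylomicron retention disease, had 378 TPM in pup 1 and 355 TPM in pup 2 (mean 366 ± 16.1 TPM). It exceeded Sar1a, its ubiquitous relative (69.7 ± 0.530 TPM), with a ratio of 5.38 in pup 1 against 5.11 in pup 2 (log2 2.39 ± 0.053). Surf4 (ENSMUSG00000014867.5, chr2:26920040-26933928, minus strand), a cargo receptor that gathers apolipoprotein B particles for export, had 298 TPM in pup 1 and 296.5 TPM in pup 2 (mean 297 ± 1.36 TPM). It lay 1.23-fold below Sar1b (log2 -0.30 ± 0.057) and 1.94-fold above Lman1, another cargo receptor (153 ± 1.31 TPM; log2 0.96 ± 0.019). Surf4-202, annotated as a nonsense-mediated decay transcript, held 5.02% of Surf4 TPM in pup 1 and 8.29% in pup 2, with overlapping deposited intervals.

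Of 25 matched genes of the COPII and export list, 24 passed 1 TPM, and the list median was 71.05 ± 1.34 TPM. Tfg, which organises exit sites, led at 425 ± 13.2 TPM, followed by Sar1b, and by the coat subunit Sec13 at 298 ± 11.4 TPM and Surf4, whose order differed between the pups. Klhl12, a ubiquitin ligase adaptor for large COPII carriers, was low at 6.16 ± 0.502 TPM, and Sec31b had 0.09 TPM in pup 1 and 0.27 TPM in pup 2. Of the 9 apolipoproteins, Apob included, 8 passed 1 TPM. Its highest were Apoa4, Apoa1 and Apoc2, and its lowest were Apoa2 at 9.35 ± 2.82 TPM and Apoa5 at 0.195 ± 0.00707 TPM. Of 14 transcription and stress regulators linked to these genes, 13 passed 1 TPM. Creb3l3 led at 313 ± 6.10 TPM, before Xbp1, the factor of the unfolded protein response, at 117 ± 4.80 TPM and the bile acid receptor Nr1h4 at 103 ± 12.1 TPM. Ern1 was at 1.82 ± 0.714 TPM and Foxa2 at 0.97 ± 0.311 TPM.

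The levels of the littermates were set against each other. A gene was called over 2-fold apart when the exact 95% interval of its scaled count ratio, pup 1 over pup 2, lay wholly above 2 or below 0.5. None of the 10 members was called with TMM scaling or with DESeq2 size factors, and over all 19088 genes with a summed count of 10 or more the rule called 153, or 0.802%, with 0.367% higher in pup 1 and 0.435% higher in pup 2. With so low a share over all genes, 0 of 10 is no result about the members. No gene of the wider lists was called either. The members' ratios ran from 0.857 for A1cf to 1.12 for Mttp. In bulk tissue, fewer cells of a type and less RNA per cell cannot be told apart.

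Smaller differences exceeded counting error for most members. The interval lay above 1 for 7 of 10 members, against 15.5% of all genes, and below 1 for 2, against 14.2%. These intervals do not hold the variation between animals, and narrow ones follow from high counts. Mttp was 1.12-fold higher in pup 1 (95% interval 1.11 to 1.13), Sar1b 1.11-fold (1.08 to 1.14) and Apobec1 1.12-fold (1.03 to 1.21). P4hb, Surf4 and Pla2g12b had ratios of 1.07, 1.08 and 1.08. Apob was nearly even at 1.02 (1.002 to 1.03), and this interval included 1 when library totals were used without further scaling (ratio 0.995), as did that of Pla2g12b (ratio 1.05). The Apob interval also included 1 when only genes with a summed count of 50 or more were used for scaling (ratio 1.01), which left 6 members above 1, and with library totals 5 were left. Tm6sf2 was at 1.01, with an interval that included 1 (0.982 to 1.04). Rbm47 at 0.867 (0.848 to 0.885) and A1cf at 0.857 (0.772 to 0.952) were lower in pup 1, while Apobec1 was higher. The wider cofactor list as a whole did not share this direction. Of its 8 genes, 3 had intervals above 1 and 3 below, and Rbm47 and A1cf are themselves 2 of the 3 below. Hnrnpab at 1.08 and Syncrip at 1.07 were higher in pup 1.

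**Figure D5:**
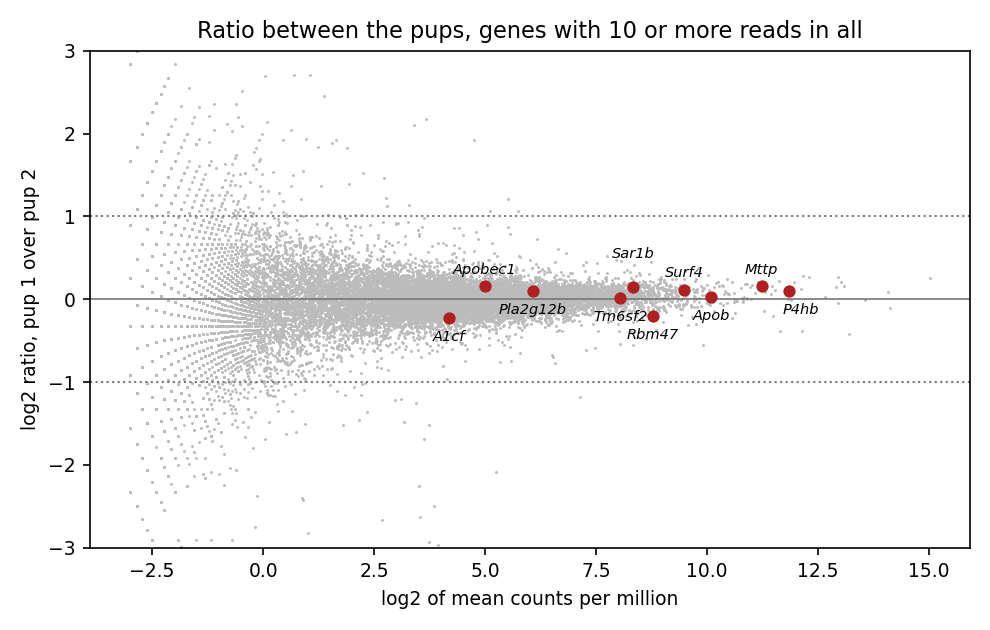
Log2 ratio of pup 1 over pup 2 against log2 mean CPM (counts scaled to library size) for 19088 genes (grey) with the 10 members in red; dotted lines mark 2-fold, and 111 genes lie beyond the axis. All 10 members lie between the dotted lines, with Rbm47 and A1cf below 0 and Mttp, Sar1b and Apobec1 above it.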

How the data were processed

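Total RNA sequencing of 2 newborn mouse intestines was analysed from 1 gene table and 1 transcript table per library. The authors deposited expected counts (estimates that may be fractional) and TPM values, scaled to transcript length. The authors also deposited interval bounds of TPM (read here as a signal, level not stated), which surround the posterior mean and can miss the TPM itself, and the percent of its gene that each transcript holds. The build was mm10 with GENCODE M4, per the notes deposited with the tables; the sources used here do not name the aligner, the quantifier or the strand setting. GENCODE M21 (GRCm38, the same build) gave names and positions, matched by identifier for 42462 of 43346 genes. Gene-level counts were whole in both pups for 8 of 10 members; Surf4 and Rbm47 held divided reads. Mttp overlaps Trmt10a and Surf4 overlaps Surf2 on the opposite strand, so reads could be exchanged where strand was not used.

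Levels are TPM as mean ± SD (n = 2). Pairs are log2 ratios of TPM + 0.1 within each pup. Ratios between pups used rounded expected counts with TMM library sizes (edgeR 4.0.16, R 4.3.3) and exact Clopper-Pearson 95% intervals (SciPy 1.17.1), which cover counting error only; the limit that a count of 0 allows is 3 counts, 0.0673 CPM in pup 1 and 0.0862 CPM in pup 2. DESeq2 1.42.0 size factors were an alternative. The ratio rule was checked on simulated counts, with an assumed spread between libraries that was not estimated from these data. Other steps ran in Python 3.11.15 (pandas 2.3.3, matplotlib 3.10.9). The members and lists were chosen with earlier results of these data known. Named were all members, the genes of 18 pairs, the 3 highest and 2 lowest genes of each list, and the 5 nearest to Apob; Intu and Zfp964 were named because the sequence search found them. Vamp7 had no matched row. A few list genes that this rule names are not reported here.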

Additional observations from a re-analysis of the deposited data

How the results depend on the processing

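No paired analysis was possible because both libraries belong to 1 group and no test compares groups. Apob averaged 99.9 TPM from the posterior mean estimates and 111.4 TPM when TPM was rescaled to nuclear genes, both outside the spread between pups, and the share of Apob-202 was 94.4% from the posterior means. The count of genes over 2-fold apart was 82 with posterior mean counts, against 153. It was 65 when only genes with a summed count of 50 or more were scaled and tested, which is a smaller set of genes. The count of members called was 0 under every setting run. Without length normalisation the log2 ratio reversed for Sar1b over Surf4 (-1.15, or 1.15 as Surf4 over Sar1b), Tm6sf2 over Rbm47 (-0.74) and Rbm47 over Apob (-1.30), since reads then follow transcript length. A threshold of 10 TPM left 9 of 10 members, without A1cf. These reversals took the count of neighbouring steps beyond their spread to 6, against 9. The transcript split of Apobec1 rests on 1479 reads in pup 1 and 1057 in pup 2 and on models that share 2012 bases; what limits it was not tested.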

Other observations

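Lists of other tissues gave further values. The yolk sac list, whose genes are not particular to that tissue, had 5 of 5 members at 1 TPM or more. Afp led at 427 TPM in pup 1 and 551 TPM in pup 2. Amn followed at 432 ± 43.6 TPM and Trf at 196 ± 4.05 TPM, with Cubn at 29.6 ± 5.37 TPM and Rbp4 at 12.5 ± 0.276 TPM. Smooth muscle genes, all 5 above 1 TPM, were led by Actg2 at 1869 ± 61.7 TPM, and macrophage genes, also 5 of 5, by Csf1r at 80.2 ± 3.01 TPM. Of 6 exocrine pancreas genes, 5 passed 1 TPM, and the list summed to 115.8 TPM in pup 1 and 180.9 TPM in pup 2, with Ctrb1 at 60.3 and 93.7 TPM.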
